A study of Mus musculus with 14 samples.

Results

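The 46 genes described here are genes that monocytes and macrophages express, and they were measured in RNA of fibro-adipogenic progenitors (FAPs), the PDGFRA-positive mesenchymal stromal cells of skeletal muscle. They were taken from a list of gene names and matched on the symbol columns of both deposited tables, in which all 46 occur, among 56953 genes after BaCl2 and 14330 after glycerol. Of the 46, 4 (Slc28a2, Cyp4f18, Rgs1 and Rasgrp4) were chosen by their measured values, a higher level in SMA than in WT libraries after both injuries. Their difference is given as a description with no test. The other 42 are known genes of the myeloid line, several of them shared with other blood cells.

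The FAPs came from the tibialis anterior (TA) muscle of wild-type (WT) mice and of mice with the genotype label SMA, taken here to stand for spinal muscular atrophy. They were collected 3 days after an injury by BaCl2, a salt that kills muscle fibres, or by glycerol, an injury known for the fat that follows it. There were 3 SMA and 3 WT libraries after BaCl2 and 4 SMA and 4 WT libraries after glycerol. The labels give no SMA allele, strain, age or sex, no antibody for the magnetic sort (MACS) that isolated the cells, and no statement that replicates came from separate animals, so p-values measure the spread between these libraries, which may be technical. Injury is entered as a batch in the labels, so an effect of the injury and an effect of the batch cannot be told apart.

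Monocytes leave the blood, enter injured muscle and become macrophages, which clear dead fibres and release signals that act on satellite cells and FAPs. The line depends on CSF1 acting on its receptor, encoded by Csf1r, and on the transcription factor PU.1, encoded by Spi1. Its cells adhere through integrins, sense debris through receptors that signal over the adaptor TYROBP, move by Rac-driven actin assembly, and kill with lysozyme, a pore-forming protein and the NADPH oxidase. FAPs are not of the blood line, and they make CSF1 and other factors that macrophages respond to.

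PU.1 binds a core written GAGGAA, and this core was counted on both strands of the promoter windows of RefSeq, which run from 250 bases before to 50 bases after a gene's start on GRCm38.p6. The build of the deposited tables is not given in the sources used here, so the windows were matched by gene symbol. A window was at hand for 31 of the 46 genes. The core was present in windows of 21 of these 31 genes (67.7%) and of 31.3% of 27025 genes in the table. The longer word GAGGAAGT, which contains the core, was found for 3 of the 31 genes (9.7%, against 3.7% of all genes), namely Cd53, Pirb and Vav1. TGACTCA, the word bound by AP-1, was likewise found for 3 genes (9.7%, against 5.9%). A match describes the letters only. The windows of Itgam and Pirb, which held the core 3 times each, and of Cd53 (2) and Vav1 (1) are shown on the strand of the gene with GAGGAA, or its complement TTCCTC, in capitals, because these genes carry 3 matches or the longer word. Itgam lies at chr7:128062390-128062689 (plus strand), Pirb at chr7:3720333-3720632 (minus strand), Cd53 at chr3:106790100-106790399 (minus strand) and Vav1 at chr17:57278850-57279149 (plus strand).
Itgam: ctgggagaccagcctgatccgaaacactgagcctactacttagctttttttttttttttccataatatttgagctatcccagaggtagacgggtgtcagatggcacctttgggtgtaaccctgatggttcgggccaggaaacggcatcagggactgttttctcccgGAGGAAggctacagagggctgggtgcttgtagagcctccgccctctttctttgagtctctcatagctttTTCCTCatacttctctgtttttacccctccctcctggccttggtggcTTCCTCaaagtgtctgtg
Pirb: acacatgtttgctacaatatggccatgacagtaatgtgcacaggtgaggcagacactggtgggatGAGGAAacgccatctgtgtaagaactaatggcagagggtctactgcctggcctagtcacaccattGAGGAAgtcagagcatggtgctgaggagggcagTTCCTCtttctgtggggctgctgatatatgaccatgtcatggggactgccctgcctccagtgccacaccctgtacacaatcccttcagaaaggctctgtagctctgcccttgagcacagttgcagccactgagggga
Cd53: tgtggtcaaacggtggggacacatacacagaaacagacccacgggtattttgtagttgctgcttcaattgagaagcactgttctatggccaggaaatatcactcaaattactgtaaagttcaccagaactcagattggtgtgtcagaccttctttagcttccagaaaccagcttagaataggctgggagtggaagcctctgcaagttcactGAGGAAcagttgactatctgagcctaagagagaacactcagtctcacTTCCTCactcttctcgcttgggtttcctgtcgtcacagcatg
Vav1: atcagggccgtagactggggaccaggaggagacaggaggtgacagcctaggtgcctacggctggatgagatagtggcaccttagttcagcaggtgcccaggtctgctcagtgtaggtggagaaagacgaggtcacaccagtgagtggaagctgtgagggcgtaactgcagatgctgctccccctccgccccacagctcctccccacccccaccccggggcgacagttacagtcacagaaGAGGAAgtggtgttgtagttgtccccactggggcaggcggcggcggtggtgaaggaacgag

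Sequencing depth after BaCl2 was 97715538 to 136437776 counts per library. Values after BaCl2 are counts per M of the library's counts (CPM; M, mega) scaled with TMM factors, and those after glycerol are the authors' normalized counts, whose depth is unknown and whose scale is separate. Smn1, which encodes the survival motor neuron protein, fell after BaCl2 (9.99 to 11.96 CPM in SMA, against 15.3 to 17.2 CPM in the WT libraries) and after glycerol (639.6 to 806 normalized counts, against 935 to 1209), which checks the labels only if the counted part of the gene is the altered part. Pdgfra, the defining FAP marker, stood at a mean of 868 CPM (SMA) and 895 CPM (WT) after BaCl2 and did not pass the test (adjusted p = 0.889, edgeR). The library labelled SMA 3 after glycerol stood apart for the 46 genes, as described below, and counts that rest on it are given with and without it. Values of single genes after glycerol include that library unless said otherwise. Many genes reported below as not passing after glycerol passed without it, all of those tested but Rac2.

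All 42 genes that were tested had a log2 difference above 0 after both injuries. Over all genes tested this held for 49.4% after BaCl2 and 50% after glycerol. The 4 genes chosen for their rise are not counted, since their direction was set by that choice. After BaCl2 the 46 genes together took 0.492%, 0.412% and 0.346% of the counts of SMA libraries 1, 2 and 3, and 0.252%, 0.180% and 0.207% of those of WT libraries 1, 2 and 3. The groups did not overlap, and the means were 0.417% ± 0.0729 (SD, n = 3) and 0.213% ± 0.0365 (SD, n = 3). After glycerol the share was 0.507%, 0.610%, 0.299% and 0.662% in SMA libraries 1 to 4 and 0.315%, 0.253%, 0.278% and 0.294% in WT libraries 1 to 4. SMA library 3 lay inside the range of the WT libraries and the other 3 SMA libraries lay above it. In bulk RNA, a change in the number of cells of a type and a change in RNA per cell cannot be told apart.

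**Figure D1:**
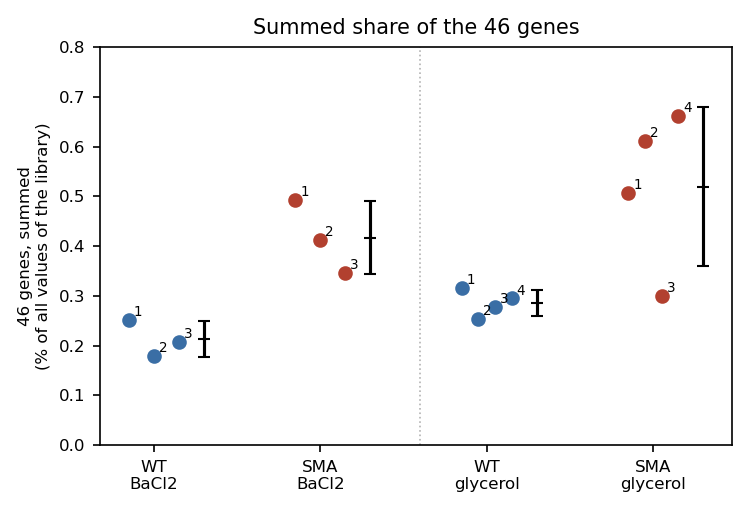
Summed level of the 46 genes in each library as a percent of all values of that library (y axis), by genotype and injury (x axis); points are libraries with their replicate number, bars are the mean and SD. The 3 SMA libraries after BaCl2 lie between 0.346% and 0.492%, above the WT libraries, and SMA library 3 after glycerol (0.299%) lies among the WT libraries.

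Of the 42 genes tested after BaCl2, 39 rose in SMA, 0 fell and 3 did not pass at an adjusted p under 0.05 (edgeR quasi-likelihood test, all 42 at an unadjusted p under 0.05; DESeq2 called 42). Among all 20119 genes tested, 2.73% were called higher in SMA. The list was drawn up with results of these data known, so nothing is read from its count. Every SMA library was above every WT library for all 42 genes, as for 12.2% of all genes. The median log2 fold change over the 42 was 0.93, beside -0.003 over all genes, and the range ran from 0.30 (Sirpa) to 1.15 (Plek). The calls depended on single libraries: 5 of the 42 genes passed without WT library 3, 18 without SMA library 2 and 20 without WT library 2, against 37 to 41 without each of the other 3. With SMA libraries 1 and 2 both left out, 7 passed and the median was 0.68.

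After glycerol 11 of the 42 genes rose in SMA, 0 fell and 31 did not pass (limma, with 41 of 42 at an unadjusted p under 0.05). Over the 14330 genes tested there, 1.70% were called higher in SMA. The 11 were Csf1r, Ptprc, Siglec1, Cd52, Laptm5, Ly86, Lst1, Pirb, Lilrb4a, Ptpn6 and Aif1. SMA libraries lay above all WT libraries for 21 of the 42 genes, as for 6.59% of all genes. The median log2 difference over the 42 was 0.91, within a range from 0.40 (Rac2) to 1.47 (Cybb).

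SMA library 3 decided the count after glycerol. It was the lowest SMA library for 45 of the 46 genes, as for 31.2% of all genes. Its level was a median 1.14 times the WT mean, while that of the other 3 SMA libraries together was 2.23 times the WT mean. Without it 41 of the 42 genes passed, all but Rac2, and the median log2 difference was 1.12. Leaving out any other single library of either genotype left 0 of the 42 passing, with 36 to 41 at an unadjusted p under 0.05 and 0 to 82 genes called in all. Without the mean-variance trend in limma, 0 of the 42 and 2 genes in all passed.

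**Figure D2:**
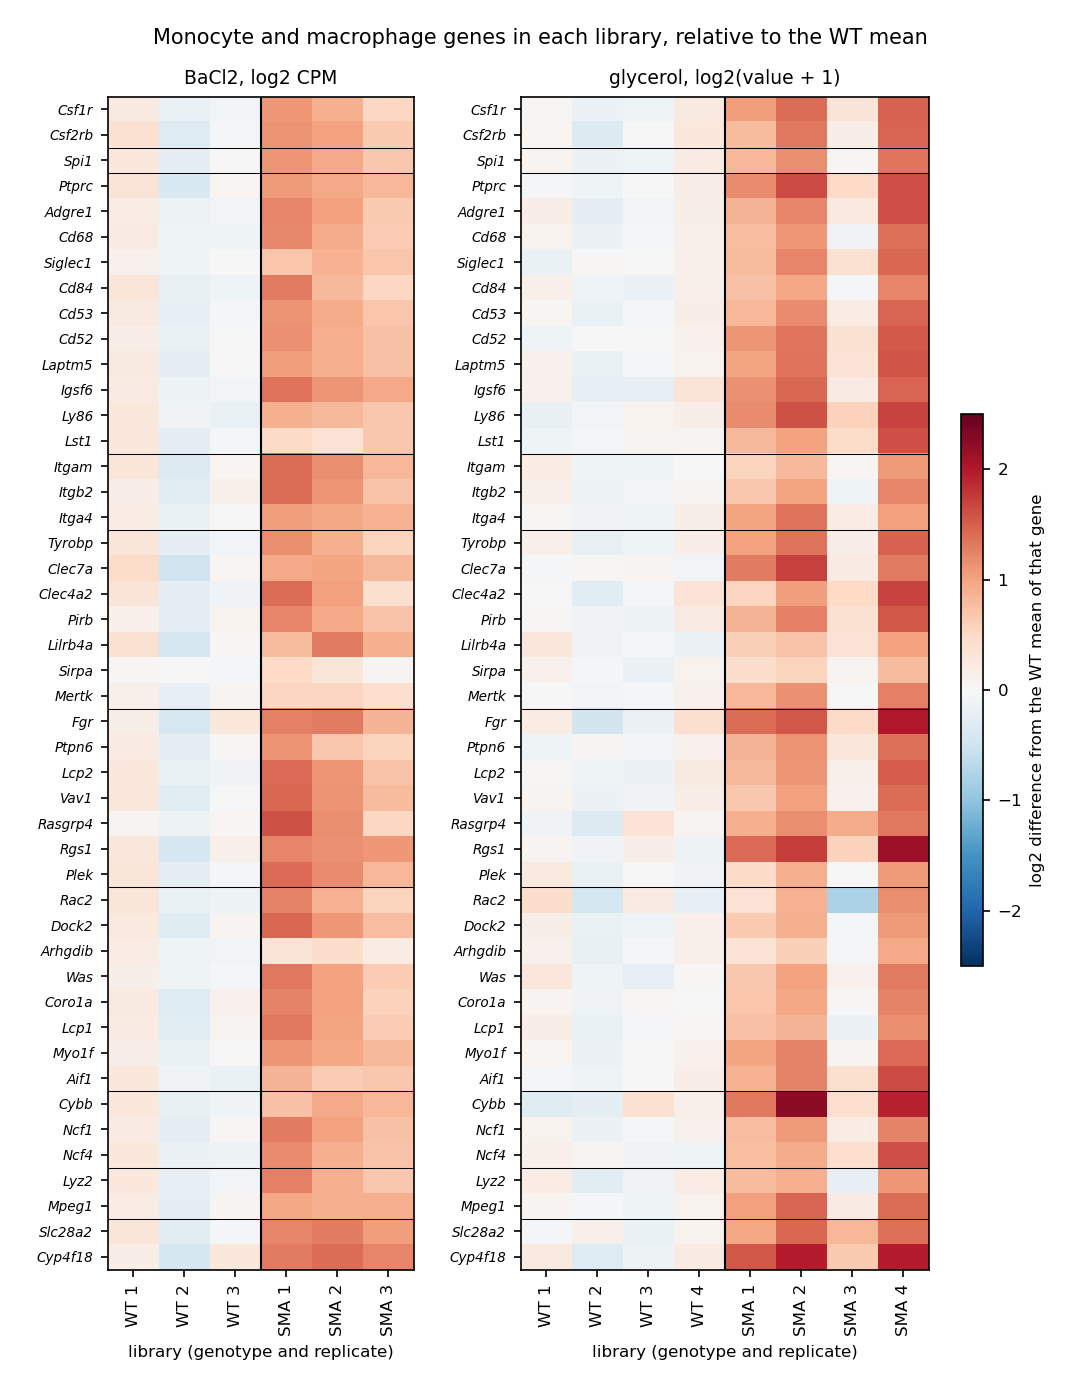
Each row is a gene and each column a library; color is the log2 level minus the mean of the WT libraries of that injury, on log2 CPM after BaCl2 (left) and log2(value + 1) after glycerol (right), with horizontal lines between roles. SMA libraries 1 and 2 after BaCl2 are mostly redder than SMA library 3, and SMA library 3 after glycerol is near the WT level for most genes.

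The order of the libraries was much the same from gene to gene after BaCl2 and among the SMA libraries after glycerol. After BaCl2, SMA library 1 was the highest SMA library for 36 genes and SMA library 3 the lowest for 41. WT library 1 was the highest WT library for 44 genes and WT library 2 the lowest for 43. The WT libraries after glycerol had no such common order: WT library 4 was the highest for 24 genes and WT library 1 for 16, and WT library 2 was the lowest for 27. Averaged over the genes, SMA libraries 1, 2 and 3 stood 1.12, 0.95 and 0.70 above the WT mean on the log2 scale, and SMA libraries 1 to 4 after glycerol 0.87, 1.197, 0.22 and 1.40. The sum of the 12 FAP markers moved the other way after BaCl2, at 40410 to 53420 CPM in the SMA and 60440 to 66950 CPM in the WT libraries. Per 100 units of that sum the 46 genes gave 9.02 ± 2.60 in SMA and 3.42 ± 0.687 in WT (SD, n = 3 each), and after glycerol 10.3 ± 2.71 and 5.51 ± 0.814 (SD, n = 4 each). The collagen genes Col1a1 and Col3a1 made up 89.8% to 92.4% of the marker sum in the BaCl2 libraries and 86.7% to 91.3% in the glycerol libraries. With these 2 left out, a choice made after the values were seen, the sum was 3866 to 4590 CPM in the SMA and 4705 to 5348 CPM in the WT libraries after BaCl2, and the 46 genes gave 98.0 ± 20.7 in SMA and 44.0 ± 9.19 in WT per 100 units of it (SD, n = 3 each). The same ratio after glycerol was 102 ± 36.4 and 59.8 ± 10.5 (SD, n = 4 each). Of the 12 FAP markers after BaCl2, 5 fell and 7 did not pass, with a median of -0.40 and 8 at an unadjusted p under 0.05 (edgeR). Only 1, Pi16 (0.45), was above 0. The others that did not pass were Clec3b (-0.52), Col1a1 (-0.49), Dcn (-0.23), Mfap5 (-0.22), Cd34 (-0.07) and Pdgfra (-0.04). The part of the FAP markers in these results was not tested.

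The receptors of macrophage growth factors were both higher. Csf1r, the receptor of CSF1 and IL-34, was at 189, 164 and 127 CPM in the SMA and 104, 79.6 and 85.2 CPM in the WT libraries after BaCl2. The glycerol libraries had it at 13333, 16928, 8023 and 17954 normalized counts in SMA and 6594, 5811, 5982 and 7517 in WT. The lowest SMA library was above the highest WT library in both injuries, and Csf1r rose by 0.84 (SE 0.14, adjusted p = 0.0123, edgeR) and by 1.06 (SE 0.23, adjusted p = 0.0456, limma) on the log2 scale. Csf2rb, the shared beta chain of the receptors of GM-CSF, IL-3 and IL-5, rose by 0.91 (SE 0.17) after BaCl2 and had a log2 difference of 0.94 after glycerol (SE 0.26, adjusted p = 0.0815, limma). Csf2rb2, a near-identical neighbour, makes the split of reads between the pair uncertain.

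Spi1 encodes PU.1, which monocytes and macrophages need to form. Its levels after BaCl2 were 37.7, 33.9 and 27.8 CPM in the SMA and 20.9, 14.8 and 17.4 CPM in the WT libraries, with no overlap, and it rose by 0.91 (SE 0.14, adjusted p = 0.00914, edgeR). After glycerol the SMA libraries held 2882, 3630.0, 1671 and 4063 normalized counts and the WT libraries 1685, 1448, 1491 and 1856. SMA library 3 lay within the WT range, and the log2 difference of 0.85 (SE 0.24) did not pass (adjusted p = 0.0867, limma). Without that library it was 1.11 (SE 0.13, adjusted p = 0.00152).

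Of 11 surface and membrane markers 10 rose after BaCl2 and 6 after glycerol. Ptprc, which encodes CD45 of all white blood cells, was at 76.6, 70.2 and 65.1 CPM in the SMA and 45.9, 28.3 and 37.7 CPM in the WT libraries after BaCl2. In glycerol libraries it was at 8213, 11183, 5099 and 11113 normalized counts in SMA and 3494, 3365, 3639.5 and 4072 in WT. The groups did not overlap in either injury, and Ptprc rose by 0.92 (SE 0.14) and by 1.22 (SE 0.22). Adgre1, the gene of the macrophage antigen F4/80, was at 141, 125 and 95.7 CPM in the SMA and 69.8, 55.7 and 58.5 CPM in the WT libraries after BaCl2 and rose by 0.98 (SE 0.13). In the glycerol set it was at 10694, 13726, 6980.4 and 18199 normalized counts in SMA and 6635, 4988, 5677 and 6546 in WT. SMA library 3 was just above the WT range there, and the log2 difference of 0.98 (SE 0.25) did not pass (adjusted p = 0.0686, limma).

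Igsf6, an immunoglobulin-family surface gene of myeloid cells, had the largest rise of the surface genes after BaCl2. It was at 31.7, 26.5 and 23.7 CPM in the SMA and 14.2, 11.3 and 11.8 CPM in the WT libraries, a log2 fold change of 1.14 (SE 0.12). Following glycerol it stood at 2524, 3098, 1309 and 3128 normalized counts in SMA and 1222, 986, 980.4 and 1418 in WT, where SMA library 3 fell inside the WT range (1.06, SE 0.26, adjusted p = 0.0645, limma). Ly86, which encodes MD-1, a partner of the Toll-like receptor relative RP105, was at 17.0, 16.1 and 14.6 CPM in the SMA and 10.96, 8.63 and 8.12 CPM in the WT libraries after BaCl2. In glycerol libraries it was at 1667, 2231, 1101 and 2367 normalized counts in SMA and 649, 706, 781 and 819.8 in WT. Both sets were free of overlap, and it rose by 0.78 (SE 0.12) and 1.26 (SE 0.22).

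Lst1, a small membrane protein gene of leukocytes, was the surface gene that did not pass after BaCl2. It was at 3.77, 3.47 and 4.28 CPM in the SMA and 3.25, 2.27 and 2.66 CPM in the WT libraries (0.49, SE 0.17, adjusted p = 0.134, edgeR). Glycerol libraries held it at 561, 647, 442 and 982 normalized counts in SMA and 295, 315, 337 and 336 in WT, and there it rose by 0.97 (SE 0.21, adjusted p = 0.0471, limma). The groups did not overlap in either injury. The sialoadhesin gene Siglec1, the lysosomal marker gene Cd68, the adhesion receptor gene Cd84, the tetraspanin gene Cd53, Cd52 and the lysosomal membrane gene Laptm5 rose by 0.75 to 0.93 after BaCl2, and Siglec1, Cd52 and Laptm5 also rose after glycerol.

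All 3 integrin genes rose after BaCl2 and 0 of 3 passed after glycerol (limma, with 3 at an unadjusted p under 0.05). Itgam and Itgb2 encode the CD11b and CD18 chains of the complement receptor Mac-1. Itgam was at 34.0, 29.2 and 23.2 CPM in the SMA and 15.9, 10.3 and 13.4 CPM in the WT libraries after BaCl2, with no overlap, and rose by 1.13 (SE 0.17, adjusted p = 0.00844, edgeR). Its levels after glycerol were 9687, 11662, 6835 and 13732 normalized counts in SMA and 7536, 6123, 6173 and 6693 in WT (0.62, SE 0.19, adjusted p = 0.0976, limma). SMA library 3 lay within the WT range there. Itgb2 was at 101, 82.1 and 62.9 CPM in the SMA and 42.8, 31.3 and 41.7 CPM in the WT libraries after BaCl2 (1.09, SE 0.16). After glycerol its 7546, 9303, 4380.1 and 11069 normalized counts in SMA stood beside 5138, 4347, 4514 and 4934 in WT (0.69, SE 0.24, adjusted p = 0.134, limma), again with SMA library 3 inside the WT range. Itga4, the alpha chain of VLA-4 by which monocytes bind VCAM1, rose by 0.95 (SE 0.10) after BaCl2 and was among the 5 genes, with Siglec1, Igsf6, Myo1f and Mpeg1, that passed without each single BaCl2 library in turn.

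Itgam was the gene whose level depended most on the table. Per kilobase of GENCODE vM21 exon it was at 2.63 ± 0.566 CPM in the WT libraries after BaCl2 (SD, n = 3), rank 36 of the 46, and at 1320.0 ± 130.5 normalized counts after glycerol (SD, n = 4), rank 12. In that annotation 68.7% of its exon bases are shared on the same strand with Gm49368, which held 0 to 2 counts per BaCl2 library and is not listed in the glycerol table. For Lilrb4a 35.3% of exon bases are shared with Gm49339, at 0 to 1 counts. The annotation the authors used is not given in the sources used here, and the part of these overlaps in the levels was not tested.

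Of 7 activating and inhibitory receptor genes 6 rose after BaCl2 and 2, Pirb and Lilrb4a, after glycerol. Tyrobp, the adaptor DAP12 through which many myeloid receptors signal, was at 59.8, 49.9 and 39.4 CPM in the SMA and 33.0, 23.0 and 25.6 CPM in the WT libraries after BaCl2 (0.87, SE 0.16, adjusted p = 0.0168, edgeR). With glycerol injury it was at 4721, 6031, 2626 and 6591 normalized counts in SMA and 2557, 2071, 2194 and 2649.6 in WT (1.0, SE 0.25, adjusted p = 0.0673, limma). SMA library 3 lay just inside the top of the WT range. Clec7a, the beta-glucan receptor Dectin-1, and Clec4a2, an inhibitory lectin receptor, rose by 0.86 and 0.98 after BaCl2. The inhibitory receptor genes Pirb and Lilrb4a rose by 0.96 and 0.97 after BaCl2 and by 1.01 and 0.67 after glycerol, and Mertk, the receptor that takes up dying cells, rose by 0.50 after BaCl2. Pirb, Lilrb4a and Clec4a2 have near-identical relatives, so their counts are uncertain.

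Sirpa, the receptor of the do-not-eat-me signal CD47, had the smallest difference after BaCl2. It was at 249, 219.7 and 187 CPM in the SMA and 180.2, 179 and 173 CPM in the WT libraries (0.30, SE 0.09, adjusted p = 0.102, edgeR). Its glycerol levels stood at 20246, 21953, 15619.7 and 25869 normalized counts in SMA and 16045, 14539, 13566 and 15829.7 in WT (0.46, SE 0.14, adjusted p = 0.0915, limma). The groups were separate after BaCl2 and overlapped through SMA library 3 after glycerol. Per kilobase of exon it was the fifth highest of the 46 genes in WT libraries after both injuries.

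Signal carriers include a kinase, a phosphatase and exchange factors, and the 5 of them that were tested rose after BaCl2. Plek, the gene of the protein kinase C substrate pleckstrin, was at 295, 253 and 198 CPM in the SMA and 137, 93.1 and 107 CPM in the WT libraries (1.15, SE 0.16, adjusted p = 0.00666, edgeR), the largest difference of the 42. The glycerol libraries had it at 11383, 15329, 8158 and 17129 normalized counts in SMA and 9762, 7309.8, 8144 and 7748 in WT (0.61, SE 0.21, adjusted p = 0.132, limma). SMA library 3 and WT library 1 made the groups overlap there. Fgr, a Src-family kinase of myeloid cells, was at 8.55, 8.81 and 6.46 CPM in the SMA and 3.94, 2.70 and 4.29 CPM in the WT libraries after BaCl2 and rose by 1.12 (SE 0.18). In the glycerol set it was at 983, 1093, 522 and 1505 normalized counts in SMA and 426, 271, 338 and 493 in WT, without overlap (1.36, SE 0.31, adjusted p = 0.052, limma). The adaptor gene Lcp2 (SLP-76) rose by 1.09 and the Rac exchange factor gene Vav1 by 1.12 after BaCl2. Ptpn6, the phosphatase SHP-1 that inhibitory receptors recruit, rose by 0.79 after BaCl2 and by 0.91 after glycerol.

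Of 8 genes of Rac signalling and actin, 7 rose after BaCl2 and 1, Aif1, after glycerol. Rac2, the Rac GTPase of blood cells, was at 20.8, 16.0 and 12.9 CPM in the SMA and 10.9, 7.82 and 7.997 CPM in the WT libraries after BaCl2 (0.90, SE 0.18, adjusted p = 0.0225, edgeR). Following glycerol it stood at 1168, 1663, 528 and 2046 normalized counts in SMA and 1235, 674, 1059 and 794 in WT. The libraries of both genotypes were mixed, with SMA library 3 the lowest of all 8, and the log2 difference of 0.40 (SE 0.39) did not pass (adjusted p = 0.578, limma). Without SMA library 3 it was 0.79 (SE 0.24, adjusted p = 0.0688). Arhgdib, an inhibitor that holds small GTPases in the cytosol, was at 37.2, 40.3 and 33.6 CPM in the SMA and 33.6, 27.3 and 28.1 CPM in the WT libraries after BaCl2. In glycerol libraries it was at 5319, 6280.1, 4037 and 8035 normalized counts in SMA and 4479.7, 3659, 4066 and 4585 in WT. Neither difference passed (0.32, SE 0.10, adjusted p = 0.0964, edgeR, and 0.46, SE 0.18, adjusted p = 0.174, limma). The Rac activator gene Dock2 rose by 1.11 after BaCl2, Was, the actin nucleation factor WASP, by 1.004, and the actin-binding genes Coro1a, Lcp1, Myo1f and Aif1 by 0.71 to 0.99. Aif1, which encodes IBA1, also rose by 1.04 after glycerol (SE 0.22).

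The phagocyte NADPH oxidase makes superoxide, and its membrane catalytic subunit is encoded by Cybb. After BaCl2 Cybb was at 74.8, 86.4 and 80.0 CPM in the SMA and 53.9, 39.7 and 42.4 CPM in the WT libraries (0.83, SE 0.11, adjusted p = 0.00597, edgeR). Glycerol libraries held it at 7568, 14397, 4103 and 11546 normalized counts in SMA and 2487, 2615, 3979 and 3350.1 in WT. The groups stayed apart in both injuries, and the log2 difference of 1.47 after glycerol (SE 0.35) was the largest of the 42 genes but missed the threshold (adjusted p = 0.0562, limma). Ncf1, the p47 organizer subunit, was at 35.1, 28.8 and 23.8 CPM in the SMA and 16.5, 12.0 and 14.6 CPM in the WT libraries after BaCl2 (1.02, SE 0.15). Its levels after glycerol were 2599, 3164, 1733 and 3592 normalized counts in SMA and 1606, 1361, 1473 and 1640.0 in WT (0.82, SE 0.20, adjusted p = 0.0597, limma). Ncf4, the p40 subunit, was at 13.7, 11.1 and 9.80 CPM in the SMA and 7.26, 5.43 and 5.51 CPM in the WT libraries after BaCl2 (0.92, SE 0.15). Its glycerol levels were 612, 684, 483 and 1102 normalized counts in SMA and 394, 377, 339 and 337 in WT (0.93, SE 0.22, adjusted p = 0.0562, limma). All 3 subunits were thus separate by genotype after both injuries and passed after BaCl2.

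Lyz2, lysozyme of macrophages and neutrophils, had the highest level per kilobase of exon of the 46 genes, at 481.5 ± 81.2 CPM per kilobase in WT libraries after BaCl2 (SD, n = 3). Its levels after BaCl2 were 1493, 1166 and 999 CPM in the SMA and 753, 548 and 599.8 CPM in the WT libraries, with no overlap (0.94, SE 0.15, adjusted p = 0.0107, edgeR). With glycerol injury it was at 101785, 110271, 50624 and 123657 normalized counts in SMA and 66603, 48551, 55088 and 66453 in WT, where SMA library 3 lay inside the WT range (0.64, SE 0.25, adjusted p = 0.171, limma). Without that library the difference was 0.93 (SE 0.12, adjusted p = 0.00234). Mpeg1, the pore-forming perforin-2 of macrophages, rose by 0.91 after BaCl2 (SE 0.10) and had a difference of 1.02 after glycerol (SE 0.24, adjusted p = 0.0555, limma). Per kilobase the order in WT libraries after BaCl2 ran from Lyz2 over Cd68 (65.8 ± 8.19 CPM), Mpeg1 (54.9 ± 8.42), Tyrobp (40.8 ± 7.75) and Sirpa (36.1 ± 0.799) down to Rasgrp4 (0.282 ± 0.0199). Lyz2 stood clear of the rest, while Cd68, Mpeg1 and Tyrobp, and likewise Tyrobp and Sirpa, had library ranges that overlapped those of the next in order.

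**Figure D3:**
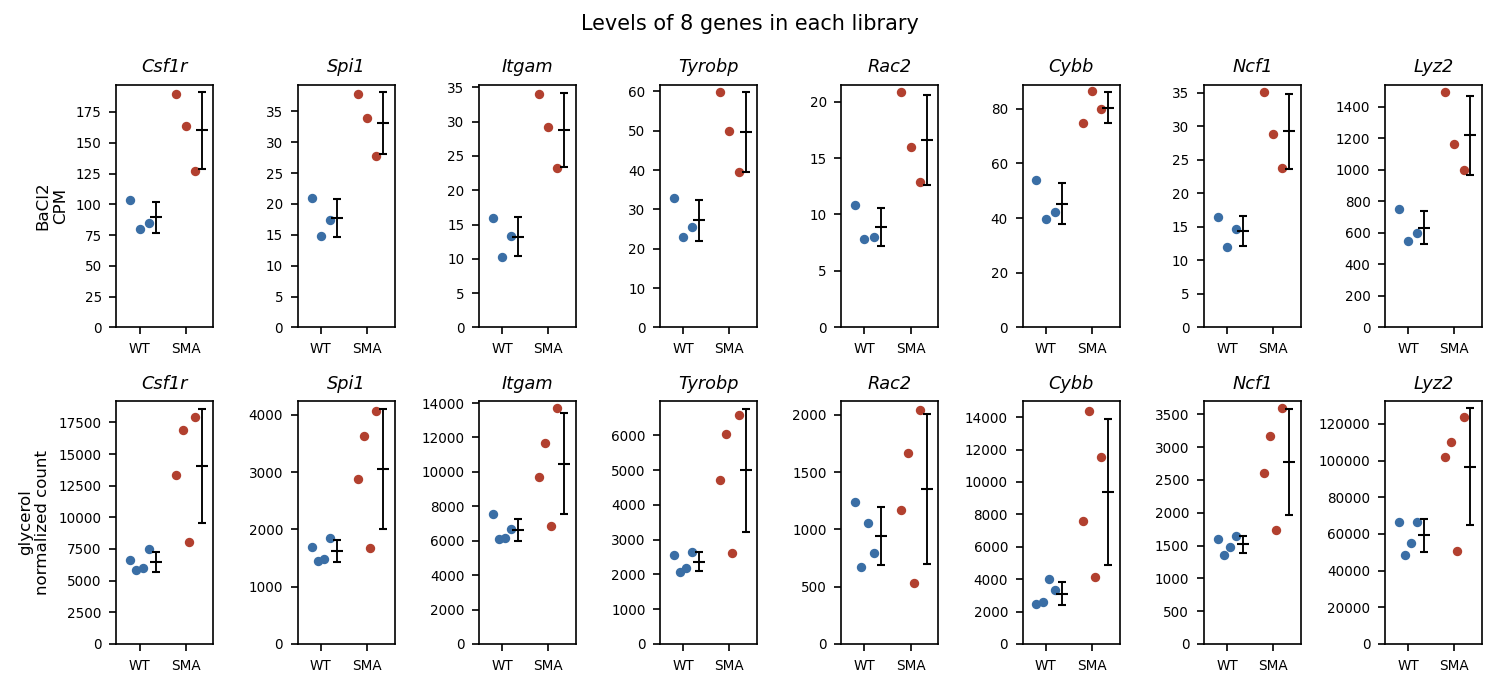
Levels of 8 genes in each library after BaCl2 (top, CPM) and glycerol (bottom, normalized counts), WT in blue and SMA in red, with the mean and SD in black; linear axes from 0 that differ between panels. The genotypes are separate for all 8 genes after BaCl2, and after glycerol the lowest SMA point, library 3, lies in or near the WT range for all 8.

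The 4 genes listed for their rise in SMA are given without a test. Slc28a2, a nucleoside transporter gene, was at 7.001, 7.27 and 6.18 CPM in the SMA and 3.67, 2.499 and 2.90 CPM in the WT libraries after BaCl2, and at 1223, 1686, 1101 and 1618 normalized counts in SMA and 612, 675, 550.5 and 657 in WT after glycerol. Cyp4f18, a cytochrome P450 of leukotriene breakdown, was at 8.48, 9.13 and 8.12 CPM in the SMA and 3.91, 2.55 and 4.16 CPM in the WT libraries, and at 714, 948, 382 and 947 normalized counts in SMA and 285, 192, 222 and 279.7 in WT. For both genes every SMA library was above every WT library in each injury. Rgs1, a brake on chemokine receptor signalling, was at 56.0, 53.4 and 51.0 CPM in the SMA and 29.2, 18.1 and 26.4 CPM in the WT libraries, and at 4179.9, 5209, 2356 and 6963 normalized counts in SMA and 1641, 1472, 1772 and 1431 in WT. Rasgrp4, a Ras exchange factor of myeloid and mast cells, was at 5.42, 4.004 and 2.58 CPM in the SMA and 1.88, 1.65 and 1.86 CPM in the WT libraries, and at 312, 372, 315 and 414 normalized counts in SMA and 156, 131, 209.9 and 174 in WT. For Rasgrp4 SMA library 3 after glycerol, at 315, was not the lowest SMA library, the 1 exception among the 46 genes.

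Since the genes shared a shift between libraries, each was also set against the mean of the other 45 in the same library. After BaCl2 5 of the 42 genes (11.9%) lay above the others in every SMA library compared with every WT library and 4 (9.52%) lay below. Set against the mean of all tested genes, 8.83% of all genes lay above and 14.5% below. That reference is not the mean of the other 45 genes, so the shares cannot be compared directly in either injury. After glycerol 3 of the 42 (7.14%) lay above and 11 (26.2%) below, against 4.59% and 13.3% of all genes. Sirpa (-0.64 and -0.47 on the log2 scale after BaCl2 and glycerol) and Arhgdib (-0.61 and -0.48) lay below the others after both injuries. Lst1 (-0.43) and Mertk (-0.43) lay below after BaCl2. Itgam (0.21 and -0.31), Plek (0.23 and -0.32) and Dock2 (0.18 and -0.29) lay above the other genes after BaCl2 and below them after glycerol. Ptprc (0.31), Ly86 (0.35) and Laptm5 (0.14) lay above after glycerol. The 4 genes listed for their rise are among the others but are not counted here. These values describe the libraries and were not tested.

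The genotype difference was then compared between the injuries, as glycerol minus BaCl2 on the log2 scale. Of the 42 genes 0 differed (z test, adjusted over 13960 genes, with 2 at an unadjusted p under 0.05; 0 also with limma for both injuries, with 2), while 10.5% of all genes did. The lowest were Plek (-0.54, SE 0.26, adjusted p = 0.18), Itgam (-0.51, SE 0.25, adjusted p = 0.185) and Rac2 (-0.50, SE 0.42, adjusted p = 0.501). The highest were Cybb (0.65, SE 0.36, adjusted p = 0.261), Lst1 (0.48, SE 0.27, adjusted p = 0.255) and Ly86 (0.48, SE 0.25, adjusted p = 0.213). Of the 42 genes 22 had the larger difference after glycerol and 20 after BaCl2. Across the 42 genes, which share libraries and are not independent, the log2 differences of the injuries had a Pearson r of 0.118 and a Spearman rho of -0.21. The z test ignores the small number of libraries and so tends to call too many genes. Single libraries moved the calls. Without SMA library 3 of the glycerol set 5 genes differed, all larger after glycerol, namely Cybb (0.995, SE 0.25), Ly86 (0.71, SE 0.18), Mertk (0.58, SE 0.14), Ptprc (0.55, SE 0.18) and Aif1 (0.54, SE 0.20). Without SMA library 3 of the BaCl2 set Plek (-0.68, SE 0.25) and Itgam (-0.65, SE 0.24) differed.

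**Figure D4:**
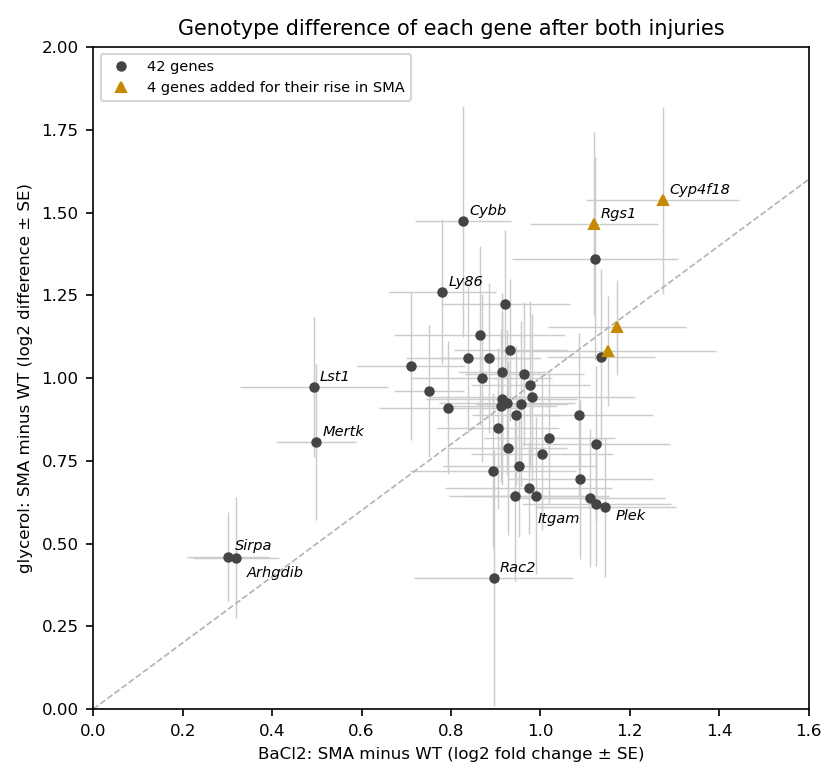
Log2 difference SMA minus WT of each gene after BaCl2 (x axis, edgeR) and after glycerol (y axis, limma), with standard errors; triangles are the 4 genes listed for their rise and the dashed line marks equal values. All 46 genes are above 0 on both axes, with Cybb and Lst1 above the line and Plek, Itgam and Rac2 below it.

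Further genes of the myeloid line that are not among the 46 were counted by role. Of 17 receptors and adaptors 13 rose and 4 did not pass after BaCl2, and 4 rose and 13 did not pass after glycerol. The chemokine receptor of inflammatory monocytes, Ccr2, rose from 16.2 ± 4.57 to 37.7 ± 3.58 CPM (n = 3 each; 1.22, SE 0.17, adjusted p = 0.00734, edgeR) and by 1.15 (SE 0.17, adjusted p = 0.0286, limma) after glycerol. Cx3cr1, the fractalkine receptor, rose by 1.23 after BaCl2, and the Fc receptor gene Fcgr1 rose by 0.90 and 1.08 and the endotoxin coreceptor gene Cd14 by 1.15 and 0.97 after BaCl2 and glycerol. Of 18 signalling partners 12 rose after BaCl2, among them the kinase gene Syk (0.76) and the phosphatase gene Inpp5d (0.91), and 3 of 17 rose after glycerol, among them Themis2 and Arhgap45. The oxidase subunit gene Cyba and the widely expressed Rac1 did not pass in either injury.

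Of 15 transcription factors of the line 4 rose after BaCl2, among them Irf8 (0.69), Ikzf1 (0.90) and Irf5 (0.57). After glycerol 1 of 13 rose, Nr1h3 (0.61), whose SMA library 3 was at 857 normalized counts beside 1168 to 1220.0 in the other SMA libraries. Of 14 other macrophage genes tested, 14 had a difference above 0 after BaCl2 and 12 after glycerol. Lyve1 (-1.48, SE 0.45, adjusted p = 0.102, limma) and Cd163 (-0.24) were below 0 after glycerol and did not pass. In all, 10 rose after BaCl2 and 4 after glycerol, with the cathepsin gene Ctss called in both (0.80 and 1.27). The ligands went the other way where they passed: Cx3cl1 (-0.46), Cxcl12 (-0.50) and Il34 (-0.50) fell after BaCl2, and 9 of 12 did not pass. Among those 9, Ccl8 (0.79), Csf3 (0.72) and Csf2 (0.16) were above 0, the only 3 of the 12. The monocyte chemoattractant genes Ccl2 (-0.15) and Ccl7 (-0.27) were below 0. After glycerol 0 of 12 passed (limma, with 2 at an unadjusted p under 0.05), and 7 of 12 were above 0. Csf1 itself was at a mean of 934 CPM (SMA) and 1071 CPM (WT) (-0.20, SE 0.09, adjusted p = 0.265, edgeR).

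Markers of other cell types differed between the genotypes to differing degrees, and some went the other way from the 46 genes. The 12 neutrophil markers summed to 15.5 to 29.0 CPM in the SMA and 8.49 to 11.4 CPM in the WT libraries after BaCl2. The 7 listed after glycerol summed to 1305 to 2220 normalized counts in SMA and 770.7 to 1218 in WT. Of 7 tested, 1, Csf3r, which monocytes also express, rose in each injury (1.16 and 1.21). An unadjusted p under 0.05 was reached by 4 after BaCl2 (edgeR) and 3 after glycerol (limma). Differences were above 0 for 6 of 7 after BaCl2 and 4 of 7 after glycerol. S100a9 (1.90), S100a8 (1.57) and Mmp8 (1.09) were among the 6 and did not pass. Ly6g, the defining neutrophil marker, held 2 counts over the 6 BaCl2 libraries. The 12 T, B and NK cell markers summed to 2.45 to 3.43 CPM in the SMA and 2.66 to 3.37 CPM in the WT libraries, and Cd3d, Cd3g, Cd8a and Ncr1 had 0 counts in the 6 libraries together, which allows up to 3 counts or 0.00398 CPM over them (counting error only). After glycerol only 4 of the 12 markers were listed, Cd4, Cd79a, Cd79b and Ms4a1. Their sum did not overlap between genotypes, at 244 to 308 normalized counts in SMA and 162 to 175 in WT. Cd4 had means of 134.5 in SMA and 54.5 in WT, while Cd79a (-0.13) and Ms4a1 (0.29) did not pass. Cd4 rose there (1.29), and Cd79b had a difference of 1.28 that did not pass (SE 0.29, adjusted p = 0.052, limma). The 8 dendritic cell markers summed to 17.7 to 20.4 CPM in the SMA and 15.2 to 18.6 CPM in the WT libraries, with Itgax (0.84) the 1 gene of 7 that rose after BaCl2 and 0 of 7 passing after glycerol (limma, with 1 at an unadjusted p under 0.05). None of 5 mast cell markers passed the low-count filter.

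Of 10 endothelial markers 0 passed after BaCl2 (edgeR, with 1 at an unadjusted p under 0.05), with a median of 0.46 and a sum of 209 to 273 CPM in the SMA and 106 to 246 CPM in the WT libraries. After glycerol 4 fell (Esam, Egfl7, Tie1 and Cdh5), and the sum was 7616 to 9754 in SMA and 11930 to 17420 normalized counts in WT. Of 7 Schwann cell markers 4 rose after BaCl2, among them Erbb3, Mbp and Ngfr, with a sum of 29.1 to 34.2 CPM in the SMA and 14.2 to 19.9 CPM in the WT libraries, and 0 of 6 passed after glycerol (limma, with 3 at an unadjusted p under 0.05). Of the 12 FAP markers 5 fell after BaCl2, among them Vcam1 (-0.47), Col3a1 (-0.49), Dpt (-0.56) and Ly6a (-0.50), and 0 passed after glycerol (limma, with 2 at an unadjusted p under 0.05), where the sum was 3300000 to 4172000 in SMA and 3263000 to 4650000 normalized counts in WT. Of 7 pericyte and smooth muscle markers Rgs5 rose (0.82) and Acta2 fell (-0.45) after BaCl2. After glycerol 0 of 7 had a difference above 0, and Acta2 fell (-0.70). The sum of the 7 there was 10940 to 12390 normalized counts in SMA and 13900 to 20100 in WT. Of the satellite cell markers 0 of 4 passed in either injury (edgeR and limma, with 0 at an unadjusted p under 0.05). Of the erythrocyte and platelet markers 0 of 5 passed after BaCl2 (edgeR, with 2 at an unadjusted p under 0.05), although the sum was 32.7 to 94.7 CPM in the SMA and 19.97 to 33.6 CPM in the WT libraries, and 0 of 4 passed after glycerol (limma, with 0). Pf4, listed here as a platelet marker, alone made up 90.3% to 94.8% of that sum in the BaCl2 libraries. The cell type that gave its counts was not tested. The hemoglobin genes Hba-a1 and Hbb-bs had means under 1 CPM in both genotypes. The part of these cell types in the levels of the 46 genes was not tested.

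**Figure D5:**
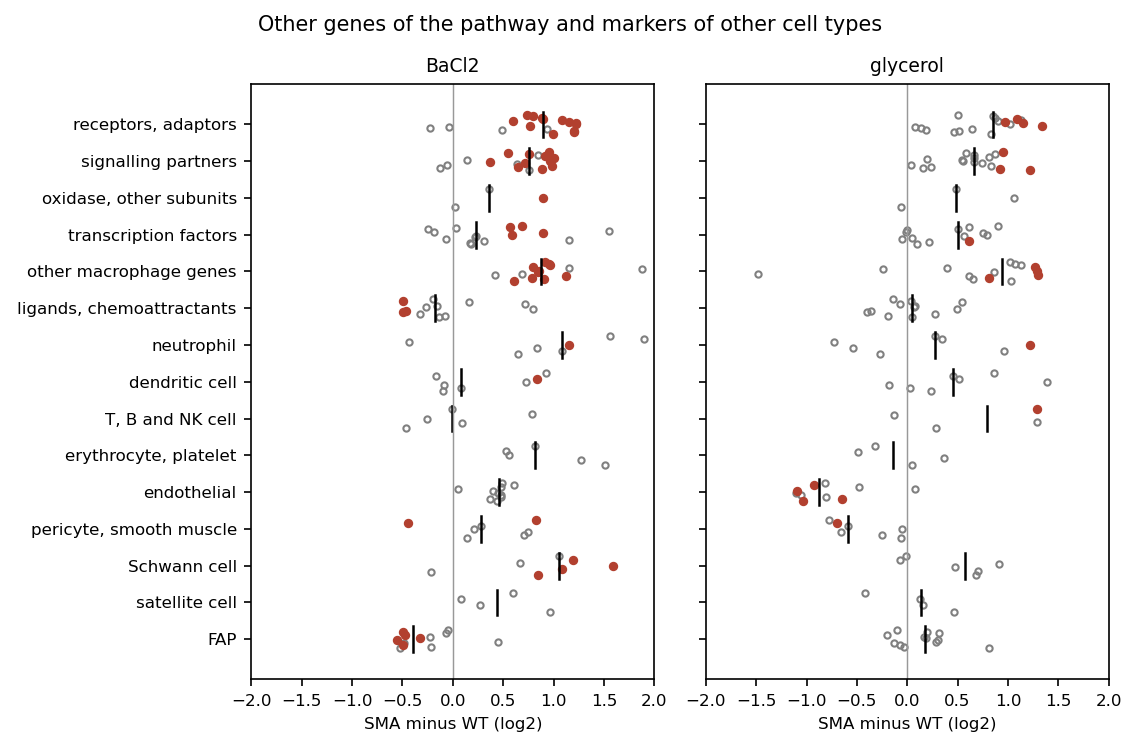
Log2 difference SMA minus WT (x axis) of each gene of the other lists (rows) after BaCl2 (left) and glycerol (right); filled points passed at an adjusted p under 0.05, open points did not, and vertical bars are list medians. Receptors, signalling partners and other macrophage genes lie mostly to the right in both injuries, while endothelial markers lie right of 0 after BaCl2 and mostly left of 0 after glycerol.

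The authors' deposited table gives an adjusted p under 0.05 for 41 of the 42 genes after BaCl2 and for 40 of the 42 after glycerol, beside the 39 by edgeR and the 11 by limma.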

How the data were processed

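RNA of sorted FAPs was sequenced from 14 libraries; per the labels' protocols RNA was extracted with the RNeasy Micro kit, selected for poly(A) and made into libraries with a directional NEBNext Ultra II kit. The submitters' processing notes list DESeq2, featureCounts, Salmon and fastp but neither their versions nor what each did, and for the aligner, genome build and annotation nothing is stated in the sources used here. Raw counts per gene make up the BaCl2 table, as deposited by the authors. The glycerol table holds normalized counts, a signal scaled by the authors, per the file headers. At most 49.6% of its low values fell on whole steps (tolerance 0.1), so counts could not be recovered and its depth is unknown. Log2 fold changes and p-values in the deposited tables are the authors' and were used only where named. Another 6 columns of per-library values were not used.

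With R 4.3.3, BaCl2 counts were tested by the edgeR 4.0.16 quasi-likelihood test (TMM factors from 0.953 to 1.05, filterByExpr, which kept all 46 genes), and glycerol by limma 3.58.1 with a mean-variance trend on log2(value + 1), whose fold changes understate low genes. SE in edgeR is the log2 fold change over the root of F. The difference between injuries is a z test on both fits. It takes p from a normal distribution and ignores the small number of libraries, so its p-values tend to be too small. P-values were adjusted by Benjamini-Hochberg over all genes fitted, with a threshold of 0.05. Alternatives included DESeq2 1.42.0, other normalization, filters, a pseudocount of 10, a replicate block and leaving out each library. The steps were tested on simulated data with known changes. The 46 genes, their roles and the 17 other lists (174 symbols, from general knowledge of the cell types) were chosen with earlier results of these data known. Named were all 46 genes by role, with library values for core genes of each role, the 4 genes listed for their rise and the extremes of each comparison, and of other lists the defining markers and the smallest p-values. Not all genes of the other lists are named, and some results on them are not reported here.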

Additional observations from a re-analysis of the deposited data

Results flagged for a closer look

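In the glycerol set, groups of 4 libraries were screened for a library whose gap to its nearest neighbour, as a share of the group's range, exceeded the 95% critical value of Dixon's test, for the 46 genes and for the genes of the other lists. Of 370 groups 14 met this, where chance alone gives about 1 in 20, and 0 of the 92 groups of the 46 genes did. SMA library 3 was low for the adaptor gene Hcst (10.9 normalized counts) and for Nr1h3 (857), and high for the FAP marker Vcam1 (30610) and the pericyte marker Kcnj8 (44.9). SMA library 4 was high for Pi16 (5987). WT library 4 was high for Vcam1 (42990), the monocyte chemoattractant gene Ccl2 (158800), Csf2 (463.9), Fcgr1 (2592), Chil3 (841.8) and Tlr2 (4656). WT library 2 was low for Ccr7 (21.2) and high for Erbb3 (132.2), and WT library 1 was low for Gas6 (15390).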

How the results depend on the processing

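After BaCl2, where 863 genes and 39 of the 42 passed with a median log2 fold change of 0.93, DESeq2 called 1692 genes (42 of the 42) and testing every gene with a count called 1867 (41). With SMA libraries 1 and 2 left out, the lone SMA library being assumed to vary like the others, 108 genes and 7 of the 42 passed with a median of 0.68. Leaving out each library in turn gave 41 to 1577 genes, 5 to 41 of the 42 and medians of 0.81 to 1.06. After glycerol, where 411 genes and 11 of the 42 passed, limma without the trend called 2 genes and 0 of the 42 (39 at an unadjusted p under 0.05), and leaving out each library gave 0 to 1645 genes, 0 to 41 of the 42 and medians of 0.72 to 1.12. For the difference between injuries (1470 genes, 0 of the 42) leaving out each library gave 1004 to 1969 genes and 0 to 5 of the 42. The cause was not tested. The differences of all 42 stayed above 0 under all 12 settings after BaCl2 and all 13 after glycerol.

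Replicate numbers are shared by the groups in the labels, but same-numbered SMA and WT libraries did not deviate together (correlations across genes from -0.0998 to 0.0678 after BaCl2 and from -0.0712 to 0.0714 after glycerol), so the numbers were not taken to pair them. With the replicate number as a block, 1144 genes and 39 of the 42 passed after BaCl2, 257 genes and 8 of the 42 after glycerol, and 1940 genes and 0 of the 42 for the difference. Depth limits genes near the low-count filter after BaCl2, and after glycerol it is unknown.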
